A study of Mus musculus with 75 samples.

Results

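Gene expression in mouse medulloblastoma allografts was compared 6 h after a single dose (QD) of 80 mpk of MK4101, which the labels call a sonic hedgehog (SHH) inhibitor, and 6 h after vehicle. The comparison held 3 arrays of 80 mpk and 5 arrays of vehicle, 8 of the 75 arrays of the series, chosen by dose, schedule and time in the sample titles, and it is described over all 21552 named genes. All groups shared the same tumour type, a medulloblastoma from Ptch1+/- mice grown in nude CD1 mice, and doses are in mpk, that is mg per kg. The single-dose groups of 80 mpk at 1, 12, 24 and 36 h with their own vehicle groups, and the 5 arrays of 40 mpk at 6 h, were used to place the 6 h response.

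Hedgehog ligands bind the receptor Ptch1, which otherwise holds the membrane protein Smo in check. Active Smo releases the Gli transcription factors, and these switch on target genes that include Gli1, Ptch1 and Hhip themselves, so that the levels of these RNAs are used as readouts of the pathway. Granule neuron progenitors of the cerebellum multiply in response to Shh, and loss of Ptch1 in them leaves the pathway on and gives rise to the SHH type of medulloblastoma. Inhibitors of Smo act below Ptch1 and lower the output of the Gli factors.

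Values are the authors' intensities on a scale on which the mean of each array is 1, here called scaled intensity, and differences are given on the log2 scale as 80 mpk minus vehicle, with a standard error (SE) from the fit. A gene is called higher or lower where its limma p-value, adjusted over all genes, was under 0.05. Nothing in the labels ties each array to an animal of its own, so p-values speak only to the spread between these arrays, whose number limits the precision. In bulk tumour RNA, fewer cells of a type and less RNA per cell cannot be told apart, and the tumours also hold cells of the host.

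Of the factors that mark granule neuron progenitors, Atoh1 and Zic1 were bright on all 8 arrays, while others of the lineage list, such as Zic2, were dim. Atoh1, the transcription factor that defines this lineage, lay between 23.5 and 25.5 in 80 mpk arrays and between 15.2 and 22 in vehicle arrays. Zic1 lay between 33.9 and 39.6 in 80 mpk arrays and between 24.8 and 30.4 in vehicle arrays, while Zic2 lay between 0.176 and 0.338 in 80 mpk arrays and between 0.122 and 0.173 in vehicle arrays. The medians of the 8 arrays lay between 0.117 and 0.131 and their correlations with each other between 0.984 and 0.996. Skeletal muscle RNA differed between single arrays of both groups. The summed scaled intensity of 20 muscle markers was 218, 3.76 and 39.8 in 80 mpk arrays, against 3.62, 95.8, 4.23, 4.03 and 6.86 in vehicle arrays. All 20 markers had a positive difference (median 2.11) and 0 were called. The fit was therefore repeated without the 3 arrays in which these markers averaged above 0 on the log2 scale, namely 80 mpk replicates 1 and 3 and vehicle replicate 2. That leaves 1 array of 80 mpk, which is then assumed to vary like the other groups. A second fit took the spread from the 8 arrays alone. Most calls that either fit lost are named with the results below, with an adjusted p or with the difference in that fit. Some appear only as a change in a count. With 1 array of 80 mpk, calls were lost both where the difference grew and where it shrank.

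After 6 h 378 of the 21552 genes were called with 80 mpk (1.75%), 254 of them lower (1.18%) and 124 higher (0.575%). An unadjusted p under 0.05 was met by 2303 genes. Falls were the larger changes. Among the lower genes 56 changed by at least 2-fold, against 4 of the higher genes. The median difference was -0.64 among lower genes (quartiles -0.91 and -0.43) and 0.52 among higher genes (quartiles 0.39 and 0.66), and the median over all genes was 0.03, with 59.3% of all genes at a positive and 40.7% at a negative difference. For 233 of the 254 lower genes every 80 mpk array lay below all 5 vehicle arrays, and for 162 also below all 31 vehicle arrays of the series. For 109 of the 124 higher genes every 80 mpk array lay above the 5 vehicle arrays, and for 64 above all 31. Over all genes such a separation from the 5 vehicle arrays was found for 7.35%, of which 3.04% were towards lower and 4.31% towards higher values, and from all 31 for 1.06% and 0.761%. The counts depended on single arrays. Without 80 mpk replicate 1, 2 or 3 they were 167, 190 and 171 lower and 108, 53 and 65 higher genes. Without the 3 muscle-rich arrays 88 genes were called, 59 lower and 29 higher, and with the muscle marker mean as a covariate 363.

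The output genes of the hedgehog pathway held the largest change of all. Gli1, the transcription factor that is both product and amplifier of the pathway, had a scaled intensity of 0.156, 0.199 and 0.176 in 80 mpk arrays, against 2.60, 2.68, 2.91, 3.01 and 2.91 in vehicle arrays. It was thus 16.0-fold lower, with a difference of -4.00 ± 0.22 (adjusted p = 3.73e-21), and the groups lay far apart. Ptch1, the receptor that is also a target of its own pathway, measured 7.28, 8.51 and 8.43 in 80 mpk arrays, against 18.3, 21.2, 19.8, 22.4 and 20.9 in vehicle arrays. No array of the groups overlapped, and the difference was -1.35 ± 0.12 (adjusted p = 7.01e-13), with both other Ptch1 probe sets called lower as well (-0.81 and -0.99). Hhip, a membrane decoy that binds hedgehog ligands, measured 0.0680, 0.0693 and 0.101 in 80 mpk arrays, against 0.160, 0.181, 0.194, 0.258 and 0.220 in vehicle arrays. This gene was dim, and its highest 80 mpk array still lay below its lowest vehicle array (-1.36 ± 0.26, adjusted p = 0.000411). Its other probe sets had differences of -0.56 and -0.64 and were not called.

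Cell cycle and cell surface genes of the target list moved less. Ccnd1 (cyclin D1, which carries cells through G1) measured 11.6, 13.0 and 12.2 in 80 mpk arrays, against 17.0, 18.7, 18.2, 18.6 and 21.2 in vehicle arrays (-0.61 ± 0.13, adjusted p = 0.00184). Cdk6, a kinase partner of the D cyclins, measured 5.69, 6.68 and 5.63 in 80 mpk arrays, against 9.42, 8.48, 8.67, 9.69 and 10.5 in vehicle arrays (-0.64 ± 0.15, adjusted p = 0.00829). Both sets of values were apart without overlap, yet the Cdk6 call was lost without 80 mpk replicate 1 (adjusted p = 0.0669) or 3 (0.0867). Boc, a co-receptor for hedgehog ligands, measured 1.33, 1.65 and 1.48 in 80 mpk arrays, against 2.39, 2.95, 3.28, 3.54 and 3.11 in vehicle arrays (-1.03 ± 0.16, adjusted p = 1.54e-05). Jag2, a Notch ligand, differed by -0.49 ± 0.12 (adjusted p = 0.0129), and its call was lost without 80 mpk replicate 2 (0.0526), 80 mpk replicate 3 (0.279) or vehicle replicate 3 (0.0692).

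Of 27 measured hedgehog target genes 7 were called lower and 0 higher (25.9%, against 1.75% of all genes), with a list median of -0.28. The other 20 included genes often named as targets. Mycn, which drives growth of granule neuron progenitors, measured 6.41, 6.23 and 6.72 in 80 mpk arrays, against 6.07, 7.06, 6.99, 6.99 and 5.79 in vehicle arrays. These values overlapped fully, and the difference was -0.02 ± 0.11 (adjusted p = 0.969). Ccnd2 (cyclin D2) differed by -0.28 (adjusted p = 0.374), the cell survival gene Bcl2 by -0.35 (0.163) and the mitotic transcription factor Foxm1 by 0.02 (0.979). Snai1, a transcriptional repressor, differed by -0.60 (adjusted p = 0.0558), the Wnt antagonist Sfrp1 by -0.55 (0.0818) and the Notch effector Hes1 by -0.50 (0.0863), without passing the test. Igf2, a growth factor of SHH tumours, had a positive difference of 0.56 (adjusted p = 0.169). Without the 3 muscle-rich arrays 2 genes of the list were called lower. Gli1 then differed by -3.84 and Ptch1 by -1.25, while Hhip (-1.56, adjusted p = 0.0534), Boc (-0.89, 0.138), Ccnd1 (-0.52, 0.494), Cdk6 (0.746) and Jag2 (0.433) were no longer called. Jag2 was not called with the 8 arrays alone either (0.236). A second, dim probe set of Jag2 differed by 0.02, and with the mean of all probe sets Jag2 (adjusted p = 0.184) and Cdk6 (0.186) were not called. Other Cdk6 probe sets of similar brightness were called lower, at -0.508 (adjusted p = 0.00471) and -0.507 (0.0399). Its dimmer probe sets differed by -0.38, 0.10 and -0.30 and were not called.

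**Figure D1:**
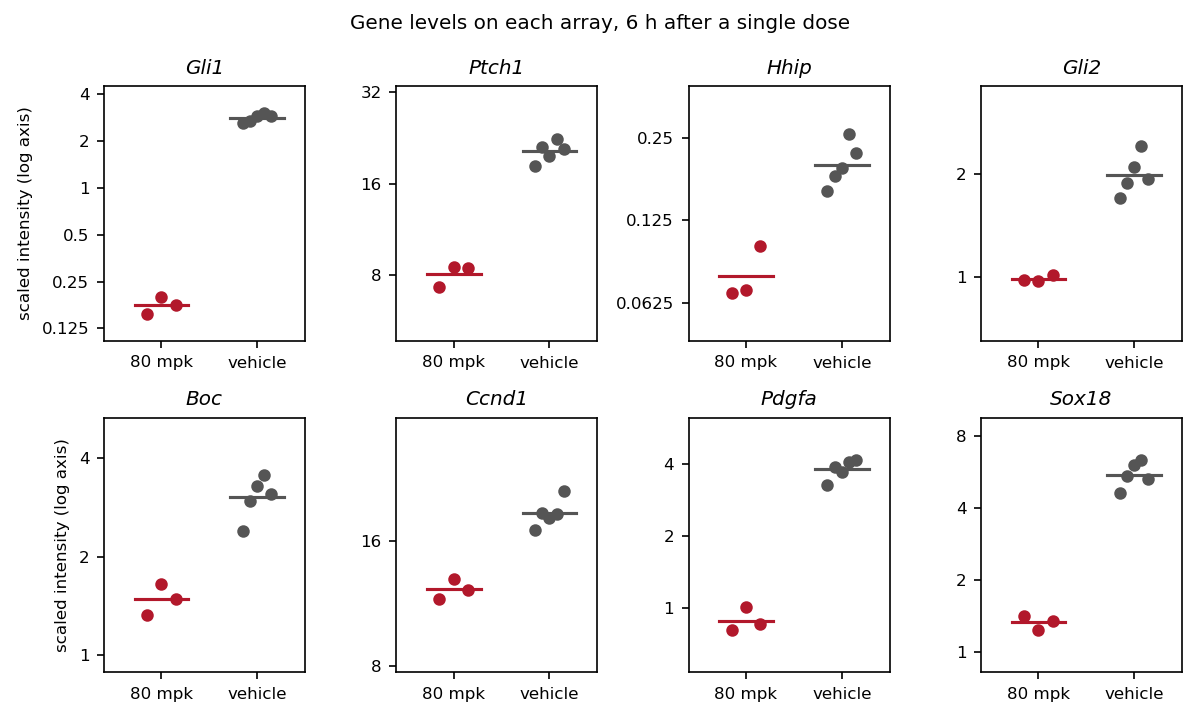
Scaled intensity on a log axis for 8 genes (Gli1, Ptch1, Hhip, Gli2, Boc, Ccnd1, Pdgfa and Sox18) at 6 h, with 3 arrays of 80 mpk (red) left of 5 arrays of vehicle (grey); each point is an array and the line is the geometric mean. In each of the 8 genes every 80 mpk array lies below every vehicle array, as in 3.04% of all genes. For Gli1, Ptch1, Hhip, Pdgfa and Sox18, which are among the largest falls, the rule of choice fixes this. The gap is widest for Gli1, at 0.156 to 0.199 against 2.60 to 3.01.

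Genes that build the pathway, as opposed to those it switches on, mostly showed small differences. Of 29 measured components 2 were called lower and 0 higher (6.9%, against 1.75% of all genes), and the list median was 0.04. This count was 0 without the muscle-rich arrays. Gli2, the factor that carries most of the activating signal, measured 0.979, 0.971 and 1.01 in 80 mpk arrays, against 1.70, 1.88, 2.10, 2.42 and 1.93 in vehicle arrays. Its 80 mpk values lay close together and below all vehicle values (-1.01 ± 0.17, adjusted p = 7.57e-05; not called without the muscle-rich arrays, at -1.06 and 0.0607), while a second, dimmer probe set of Gli2 differed by 0.03. Spop, which marks Gli proteins for breakdown, measured 6.50, 6.22 and 5.60 in 80 mpk arrays, against 7.91, 7.93, 7.44, 7.55 and 9.56 in vehicle arrays (-0.40 ± 0.09, adjusted p = 0.00663, but 0.134 without 80 mpk replicate 3, 0.494 without the muscle-rich arrays and 0.208 with the 8 arrays alone). Smo, the protein at which inhibitors of this class act, measured 3.11, 3.48 and 3.28 in 80 mpk arrays, against 2.67, 3.35, 4.10, 4.09 and 4.07 in vehicle arrays. The Smo values overlapped, with a difference of -0.13 ± 0.13 (adjusted p = 0.79). Sufu, which holds Gli proteins in the cytoplasm, differed by -0.25 (0.525), Gli3, mainly a repressor, by 0.07 (0.911) and Kif7, a kinesin of the cilium, by -0.10 (0.768). Shh itself was dim in all 8 arrays and differed by -0.03. The primary cilium, where Smo signals, was represented by 30 genes, of which 0 were called (median 0.01).

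Secreted signals and their receptors held several of the other large falls. Pdgfa, a ligand of platelet-derived growth factor receptors, measured 0.811, 1.01 and 0.859 in 80 mpk arrays, against 3.29, 3.91, 3.71, 4.07 and 4.18 in vehicle arrays. Its groups were far apart (-2.10 ± 0.14, adjusted p = 4.22e-18), although a second probe set of Pdgfa differed by 0.19. Gdf10, a ligand of the bone morphogenetic protein (BMP) family, measured 0.126, 0.0812 and 0.0744 in 80 mpk arrays, against 0.470, 0.353, 0.432, 0.387 and 0.456 in vehicle arrays (-2.19 ± 0.31, adjusted p = 1.04e-06). Wif1, which binds Wnt ligands and blocks them, measured 0.484, 0.709 and 0.518 in 80 mpk arrays, against 1.65, 2.63, 2.16, 2.57 and 2.11 in vehicle arrays (-1.96 ± 0.24, adjusted p = 1.97e-08). All of these 80 mpk values lay under the vehicle values, which the rule for the largest falls requires. Wnt4 measured 0.370, 0.333 and 0.361 in 80 mpk arrays, against 0.613, 0.71, 0.782, 0.762 and 1.02 in vehicle arrays (-1.11 ± 0.15, adjusted p = 1.49e-07). Pgf, a ligand of the vascular endothelial growth factor family, differed by -1.36 ± 0.20 and Angptl2, an angiopoietin-like secreted protein, by -1.38 ± 0.19.

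The pathway lists around these genes each held some called genes, set here against 1.75% of all genes. In the Wnt list 3 of 33 genes were called lower (Wif1, Wnt4 and the receptor Fzd2) and 0 higher (9.09%), with a median of 0.03. Among 30 BMP and TGF-beta genes 4 were lower and 1 higher (16.7%). Besides Gdf10 these were Rgma, a co-receptor for BMPs (-1.67 ± 0.17), its relative Rgmb (-0.53 ± 0.14), and the BMP target Id1 (-0.53 ± 0.10), while Id2, a related inhibitor of differentiation, was higher (0.57 ± 0.12). In the list of 40 growth factors and receptor tyrosine kinase feedback genes (10% called) Pdgfa, Fgfr2 (-1.18 ± 0.29) and Irs1, an adaptor of the insulin and IGF receptors (-0.44 ± 0.10), were lower and the dim adaptor Irs4 (0.82 ± 0.15) was higher. The other 3 probe sets of Fgfr2, all dimmer, differed by 0.13, -0.14 and 0.22, and the mean of all of them by -0.24 (adjusted p = 0.49). The mean of both Irs1 probe sets was not called either (0.372). A second bright probe set of Rgmb was called lower (-0.44, adjusted p = 0.000494), while its dimmer ones (-0.04 and -0.44) were not called. The Fgfr2 call was lost without 80 mpk replicate 1 (adjusted p = 0.134) or 3 (0.142), that of Irs1 without replicate 1 (0.083), that of Rgmb without replicate 1 (0.17), replicate 3 (0.117) or vehicle replicate 5 (0.072), and that of Fzd2 without replicate 3 (0.0662). In the Notch list of 20 genes (20% called) the ligand Dll3 (0.59 ± 0.14) and the effector Hey1 (0.76 ± 0.13) were higher, and Jag2 and Lfng, which modifies Notch receptors (-0.79 ± 0.17), were lower. Dll3 was not called without 80 mpk replicate 2 (adjusted p = 0.223). Leaving out the muscle-rich arrays ended the calls of Fzd2 (difference -0.54), Id1 (-0.60), Rgmb (-0.36) and Fgfr2 (-0.68). It also ended those of Irs1 (-0.37), Hey1 (0.805), Jag2 (-0.495) and Lfng (-0.63). With the 8 arrays alone the calls of Fzd2 (adjusted p = 0.0591), Id1 (0.0586), Id2 (0.136), Rgmb (0.0616) and Irs1 (0.236) were lost. So were those of Irs4 (0.114), Dll3 (0.276), Hey1 (0.0772), Jag2 and Lfng (0.0563). In neither fit did Wif1, Wnt4, Gdf10, Rgma or Pdgfa lose the call.

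Several transcription factor genes were also lower. Sox18, best known from the development of blood and lymph vessels, measured 1.41, 1.23 and 1.35 in 80 mpk arrays, against 4.63, 5.41, 6.02, 6.36 and 5.26 in vehicle arrays. It stood apart in all arrays (-2.05 ± 0.13, adjusted p = 3.36e-18) and was the only one of 16 endothelial markers called. Without Sox18 the summed scaled intensity of those markers was 6.47 to 8.08 in 80 mpk arrays and 6.11 to 12.7 in vehicle arrays. Bcl11b, a zinc finger repressor of neurons and T cells, measured 0.459, 0.671 and 0.600 in 80 mpk arrays, against 1.6, 1.73, 2.05, 2.10 and 2.66 in vehicle arrays (-1.81 ± 0.16, adjusted p = 3.13e-13), and its other 3 probe sets were also called lower. Sox9, a factor of progenitors and glia, differed by -1.17 ± 0.18 (adjusted p = 4.48e-06), and together with Sox18 it made up the calls among 16 Sox factors (12.5%). Batf3 (-1.51 ± 0.17) and Fosl2 (-1.38 ± 0.21), both partners in AP-1 complexes, and Egr4 (-1.04 ± 0.19, adjusted p = 0.135 without the muscle-rich arrays) were lower as well. Fosl2 measured 0.474, 0.454 and 0.458 in 80 mpk arrays, against 0.951, 1.68, 1.07, 1.30 and 1.12 in vehicle arrays, without overlap. A second Fosl2 probe set differed by -0.01.

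The remaining large falls were in genes of varied function. Clic6, a protein of the chloride channel family, measured 0.339, 0.298 and 0.365 in 80 mpk arrays, against 1.55, 1.59, 1.11, 1.32 and 1.18 in vehicle arrays (-2.01 ± 0.20, adjusted p = 3.16e-11). Hk2 (hexokinase 2, which traps glucose in the cell) measured 3.69, 3.73 and 3.95 in 80 mpk arrays, against 10.2, 8.16, 10.6, 10.8 and 10.8 in vehicle arrays. Its groups were widely separated (-1.41 ± 0.12, adjusted p = 1.39e-13) and its second probe set differed by -1.35. Hk2 was the 1 called gene among 31 hypoxia and glycolysis genes (3.23%), of which 26 had a negative difference (median -0.14). Amer3 differed by -1.51 ± 0.11, Fam155a by -1.64, Tmem28 by -1.51, Rftn2 by -1.38, Tbata by -1.35, Doc2b, a calcium sensor of vesicle release, by -1.30, the collagen gene Col27a1 by -1.30 and Hs3st3b1, which modifies heparan sulfate, by -1.29. Rftn2 (difference -1.27), Tbata (-1.02) and Doc2b (-1.04) were not called without the muscle-rich arrays. Less firm were Ackr3 and Hmox1. Ackr3, a scavenging receptor for chemokines, measured 0.136, 0.0534 and 0.103 in 80 mpk arrays, against 0.456, 0.333, 0.254, 0.265 and 0.205 in vehicle arrays (-1.68 ± 0.36, adjusted p = 0.00225, but 0.112 without 80 mpk replicate 2 and 0.0595 with the 8 arrays alone). Hmox1, which breaks down haem, measured 1.11, 0.324 and 0.434 in 80 mpk arrays, against 2.51, 3.23, 1.67, 1.47 and 1.29 in vehicle arrays. Its arrays were scattered in both groups (-1.83 ± 0.46, adjusted p = 0.0152), and the call was lost without 80 mpk replicate 2 (0.237) or 3 (0.145) or vehicle replicate 2 (0.0568), without the muscle-rich arrays (0.137), with the 8 arrays alone (0.125) and with vehicle arrays of 3 times joined (0.0897).

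Among the 45 largest falls and rises 20 genes had more than 1 probe set. For 10 of these at least 1 other probe set was called in the same direction, and for the other 10 none was. In 17 of the 20 every other probe set had the same sign, the exceptions being Pdgfa, Hs3st3b1 and Tmem28. A shared sign can rest on a small difference, as in Fosl2 (-0.01), Cemip (0.04), Rgma (-0.33 and -0.08), Nhsl1 (0.12) and Nol4l (0.13).

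**Figure D2:**
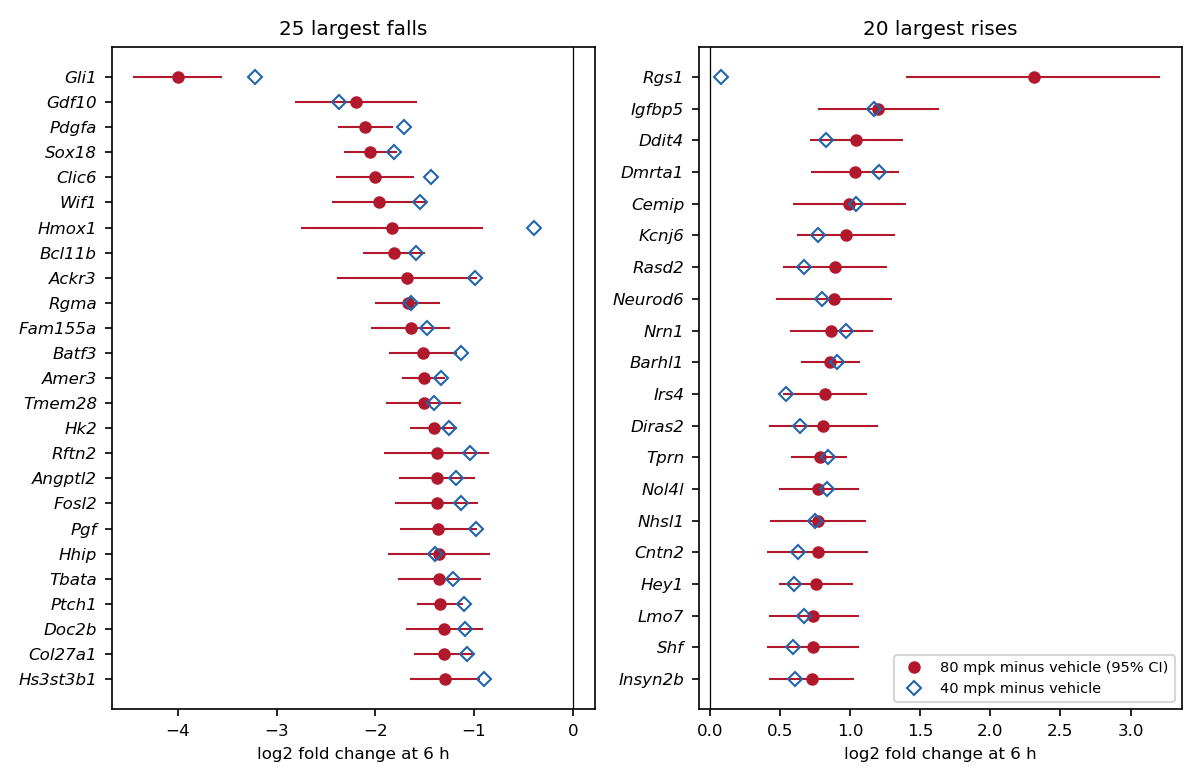
Log2 fold change of 80 mpk minus vehicle at 6 h with its 95% confidence interval for the 25 largest falls and 20 largest rises, and of 40 mpk minus the same vehicle arrays as open diamonds. Falls reach -4.00 (Gli1) and rises 2.31 (Rgs1), and the diamonds of Rgs1 (0.08) and Hmox1 (-0.39) lie near 0.

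Rises were smaller, apart from Rgs1. This gene, which shortens signals of G protein coupled receptors, measured 0.518, 1.10 and 0.975 in 80 mpk arrays, against 0.346, 0.200, 0.109, 0.131 and 0.127 in vehicle arrays (2.31 ± 0.45, adjusted p = 0.00073). Igfbp5, a secreted protein that binds insulin-like growth factors, measured 12.5, 15.2 and 13.4 in 80 mpk arrays, against 5.75, 6.70, 5.78, 5.33 and 6.28 in vehicle arrays (1.20 ± 0.22, adjusted p = 0.000183). Ddit4, which restrains mTOR signalling, measured 8.67, 9.80 and 9.42 in 80 mpk arrays, against 4.86, 5.53, 4.0, 5.19 and 3.33 in vehicle arrays (1.04 ± 0.17, adjusted p = 2.21e-05). The 80 mpk arrays of these genes lay above all vehicle arrays, which the rule for the largest rises requires. Dmrta1, a transcription factor of the DMRT family, measured 0.383, 0.425 and 0.350 in 80 mpk arrays, against 0.162, 0.172, 0.205, 0.201 and 0.202 in vehicle arrays (1.04 ± 0.16, adjusted p = 6.64e-06). Other rises were Cemip, which takes part in hyaluronan breakdown (0.99 ± 0.20), the neuronal potassium channel gene Kcnj6 (0.97 ± 0.17), the small GTPase genes Rasd2 (0.89) and Diras2 (0.81), Tprn (0.78 ± 0.10), Nol4l (0.77), Nhsl1 (0.77), Lmo7 (0.74), Shf (0.73) and Insyn2b (0.73). The calls of Diras2 (adjusted p = 0.187), Nhsl1 (0.0658) and Lmo7 (0.0558) were lost without 80 mpk replicate 2, and that of Diras2 also without vehicle replicate 1 (0.0646). With the 8 arrays alone the calls of Cemip (adjusted p = 0.149), Rasd2 (0.158), Diras2 (0.203), Nhsl1 (0.101), Lmo7 (0.0861), Shf (0.0869) and Insyn2b (0.0595) were lost. Without the muscle-rich arrays Cemip (difference 1.16), Diras2 (1.09), Nhsl1 (0.98), Lmo7 (0.915), Shf (0.80) and Insyn2b (0.69) were no longer called. Of these only Insyn2b had a smaller difference than with all arrays. Rgs1, Igfbp5, Ddit4, Dmrta1 and Kcnj6 kept their calls in both fits.

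Genes of the granule neuron lineage were among the rises. Of 25 measured lineage genes 5 were called higher and 0 lower (20%, against 1.75% of all genes), 20 had a positive difference, and the list median was 0.23 against 0.03 for all genes. Barhl1, a homeobox factor of granule neuron progenitors, measured 5.22, 5.90 and 4.95 in 80 mpk arrays, against 2.80, 3.17, 2.71, 2.95 and 3.13 in vehicle arrays. Its groups were clearly separate (0.86 ± 0.10, adjusted p = 1.97e-08), and its second probe set differed by 1.00. Meis1, a homeobox cofactor (0.50 ± 0.09), Lhx9 (0.52 ± 0.11), Zic1 (0.38 ± 0.10, adjusted p = 0.0206) and Neurod6, a neuronal bHLH factor (0.89 ± 0.21, adjusted p = 0.00751), were the others. Zic1 was not called without 80 mpk replicate 2 (adjusted p = 0.226) or 3 (0.0854) or vehicle replicate 1 (0.0793) or 5 (0.0572), nor Neurod6 without 80 mpk replicate 2 (0.135) or 3 (0.0569), and in each case of a missing 80 mpk replicate 2 or 3 the list held 3 called genes. With the 8 arrays alone 1 gene was called, Barhl1, and Meis1 (adjusted p = 0.0905), Lhx9 (0.0623), Zic1 (0.203) and Neurod6 (0.0711) were not. Barhl1 and Meis1 were called without the muscle-rich arrays. Lhx9 (difference 0.64), Zic1 (0.52) and Neurod6 (1.22) were not, although these differences were larger than with all arrays. The mean of all Lhx9 probe sets was not called either (adjusted p = 0.127). Atoh1, with the values given above, differed by 0.35 without passing the test (adjusted p = 0.207). In the list of 30 neuronal differentiation genes 3 were higher and 0 lower (10%, median 0.20). They were Kcnj6, Nrn1, a membrane protein that promotes neurite growth (0.87 ± 0.15), and the adhesion molecule Cntn2 (0.77 ± 0.18, adjusted p = 0.0947 without 80 mpk replicate 3 0.51 without the muscle-rich arrays and 0.0676 with the mean of its probe sets). Axon guidance genes had 31 positive differences among 41 (median 0.14), where 59.3% of all genes were positive, but the 2 called (4.88%), the receptor gene Epha8 (-1.14 ± 0.14) and Rgma, were lower.

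Cell cycle genes did not move as 1 group. All 39 measured G1/S and DNA replication genes had a negative difference, with a list median of -0.29, where 40.7% of all genes were negative, but 3 were called lower (7.69%). Ccne2 (cyclin E2, which starts S phase) measured 0.124, 0.157 and 0.136 in 80 mpk arrays, against 0.240, 0.235, 0.192, 0.227 and 0.263 in vehicle arrays (-0.73 ± 0.17, adjusted p = 0.00914). Mcm3, a subunit of the replicative helicase, measured 0.890, 0.898 and 0.904 in 80 mpk arrays, against 1.19, 1.11, 1.31, 1.32 and 1.37 in vehicle arrays (-0.49 ± 0.13, adjusted p = 0.03). Both genes were separate in all arrays, as was Chaf1b, a histone chaperone subunit, at 1.66, 1.73 and 1.58 in 80 mpk arrays against 2.23, 2.16, 2.73, 2.51 and 2.27 in vehicle arrays (-0.52 ± 0.14, adjusted p = 0.03). The count of 3 became 0 without 80 mpk replicate 1 or 3, 1 without 80 mpk replicate 2 and also without vehicle replicate 3 or 4, and 5 when vehicle replicate 1 or 2 was left out. Without the muscle-rich arrays it was 0, and with the 8 arrays alone 1. The calls lost with the 8 arrays alone were those of Mcm3 (adjusted p = 0.0563) and Chaf1b (0.0589). With the mean of all probe sets Ccne2 was not called (adjusted p = 0.126). Among 29 G2/M and mitosis genes 0 were called. Of these 29 genes 24 had a positive difference, where 59.3% of all genes were positive, and the median was 0.13. Of 19 D cyclins, their kinases and inhibitors Ccnd1 and Cdk6 were lower and 0 higher (10.5%, against 1.75% of all genes). Both are also counted among the hedgehog targets above.

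Promoters of genes that fell were read for the letters that Gli and E2F factors are known to bind, in 300 bases around each start (250 before to 50 after) from RefSeq, build GRCm38.p6, on both strands. A promoter was found for 202 of the 254 lower and 94 of the 124 higher genes, and for 16854 genes in all. The Gli letters GACCACCCA stood in 1 promoter of a lower gene (0.495%), 0 of higher genes and 43 of all genes (0.255%). That 1 gene was Cltb, a clathrin light chain (-0.75 ± 0.11, adjusted p = 1.1e-06). Of the 27 measured hedgehog target genes 18 had a promoter, and 0 of these 18 held the letters. The other targets could not be read. The E2F letters TTTCCCGC stood in 10 promoters of lower genes (4.95%), 2 of higher genes (2.13%) and 275 of all genes (1.63%), and in 7 of 33 promoters of the G1/S and replication list (21.2%). The related letters TTTGGCGC stood in 3 promoters of lower genes (1.49%), 2 of higher genes (2.13%) and 137 of all genes (0.813%), and in 6 of the 33 (18.2%). The E-box CACGTG stood in 31 promoters of lower genes (15.3%), 9 of higher genes (9.57%) and 1595 of all genes (9.46%). A match is a string of letters and not evidence of binding, and 300 bases without a match do not show that a gene lacks Gli sites. The promoters of 4 genes called lower are printed 5′ to 3′ on the strand of the gene, with these letters in capitals: Cltb for the Gli letters, Pdgfa as the signal gene with the E2F letters, and Mcm3 and Hells (a chromatin remodeller, -0.50 ± 0.14) as replication genes with them. The Hells call was lost in 9 of 19 alternatives, among them the 8 arrays alone (adjusted p = 0.0817). They lie at chr13:54611324-54611623 (Cltb, minus strand), chr5:138994232-138994531 (Pdgfa, minus strand), chr1:20820263-20820562 (Mcm3, minus strand) and chr19:38930740-38931039 (Hells, plus strand).
Cltb: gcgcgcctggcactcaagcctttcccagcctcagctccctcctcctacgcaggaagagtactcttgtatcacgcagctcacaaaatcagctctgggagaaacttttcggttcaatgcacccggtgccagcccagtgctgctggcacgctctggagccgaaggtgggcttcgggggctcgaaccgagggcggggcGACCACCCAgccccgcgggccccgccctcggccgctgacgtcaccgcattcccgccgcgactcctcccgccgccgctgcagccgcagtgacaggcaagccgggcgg
Pdgfa: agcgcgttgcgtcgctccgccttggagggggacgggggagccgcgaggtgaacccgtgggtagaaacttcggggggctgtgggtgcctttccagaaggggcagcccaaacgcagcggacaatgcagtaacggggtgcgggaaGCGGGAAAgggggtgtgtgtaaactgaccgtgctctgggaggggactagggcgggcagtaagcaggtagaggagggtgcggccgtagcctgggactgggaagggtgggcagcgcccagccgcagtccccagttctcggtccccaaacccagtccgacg
Mcm3: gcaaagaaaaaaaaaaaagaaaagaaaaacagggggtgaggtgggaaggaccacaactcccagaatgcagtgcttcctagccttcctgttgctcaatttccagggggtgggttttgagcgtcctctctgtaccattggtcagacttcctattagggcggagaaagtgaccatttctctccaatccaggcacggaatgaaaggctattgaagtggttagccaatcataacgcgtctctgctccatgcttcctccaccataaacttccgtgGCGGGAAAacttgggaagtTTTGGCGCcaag
Hells: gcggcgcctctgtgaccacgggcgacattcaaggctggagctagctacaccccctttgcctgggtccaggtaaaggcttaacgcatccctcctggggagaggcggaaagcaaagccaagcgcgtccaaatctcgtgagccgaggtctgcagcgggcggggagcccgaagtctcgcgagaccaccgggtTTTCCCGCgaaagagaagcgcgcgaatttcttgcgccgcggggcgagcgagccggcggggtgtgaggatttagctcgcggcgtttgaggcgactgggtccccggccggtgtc
Positions are counted from the start of the gene. The capitals begin at -56 in Cltb and at -62 in Hells. In Pdgfa they begin at -108 and hold the E2F letters on the opposite strand, at 1 of its 2 listed starts. In Mcm3 the opposite-strand E2F letters begin at 19 and TTTGGCGC at 38. No capitals in these promoters belong to both motifs.

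Lists of growth and stress responses, of 16 to 34 measured genes, held between 0 and 4 called members each. In lists of this size 1 called member already lifts the share above the 1.75% of all genes. Ddit4 is counted in several of them. In 34 Myc network and ribosome biogenesis genes (8.82% called) Nop56 (-0.35 ± 0.09) and Nop58 (-0.70 ± 0.17), core proteins of small nucleolar RNPs, were lower and Mycl, a member of the Myc family (0.55 ± 0.14), was higher. None of these calls held without 80 mpk replicate 3 (adjusted p = 0.0943, 0.163 and 0.155). Of 31 immediate early genes (6.45%) Fosl2 and Egr4 were lower. Fos measured 1.84, 1.75 and 2.0 in 80 mpk arrays, against 0.993, 1.35, 0.601, 0.848 and 0.645 in vehicle arrays. These values did not overlap, as was found for 7.35% of all genes, and Fos did not pass the test (1.13 ± 0.47, adjusted p = 0.326). Of 28 FoxO and growth restraint genes (14.3%) Ddit4 and Cited2 (0.57 ± 0.16, adjusted p = 0.0498) were higher and Foxo6 (-0.89 ± 0.15) and Trib2 (-0.74 ± 0.13) lower. The Cited2 call, next to the threshold, was lost without any of 7 single arrays, all but vehicle replicate 1. Of 28 amino acid and ER stress genes (7.14%) Ddit4 was higher and the amino acid transporter subunit Slc3a2 (-0.25 ± 0.07, adjusted p = 0.0407) lower. The Slc3a2 call was lost in 13 of 19 alternatives, among them without 80 mpk replicate 1 (0.127) or 2 (0.371) and with the mean of both probe sets (-0.03, 0.934), and its second, dim probe set differed by 0.19. Of 28 p53 response and cell death genes (7.14%) Trp53inp1 (0.47 ± 0.13, adjusted p = 0.0304) was higher and Eda2r (-0.71 ± 0.15) lower. Of 20 sterol synthesis genes Dhcr7, which makes cholesterol in the last step, was the 1 called gene (5.0%), higher by 0.38 ± 0.10 (adjusted p = 0.0177), and 15 had a positive difference (median 0.22). Trp53inp1 and Dhcr7 were not called without 80 mpk replicate 2 (adjusted p = 0.333 and 0.104), among other single arrays. Of 19 clock genes Hlf was lower (-0.80 ± 0.14; 5.26%), of 26 oxidative stress and haem genes Hmox1 was lower (3.85%), and of 16 glucocorticoid response genes Ddit4 was higher (6.25%). Of 18 insulin-like growth factor genes Igfbp5 and Irs4 were higher and Irs1 lower (16.7%). Of 24 genes for regulators of G protein signalling and chemokine receptors Rgs1 and Rasd2 were higher and Ackr3 lower (12.5%). Leaving out the muscle-rich arrays ended the calls of Nop56 (difference -0.305), Nop58 (-0.84), Mycl (0.70), Egr4 and Cited2 (0.73). It also ended those of Trib2 (-0.685), Slc3a2 (-0.37), Eda2r (-0.79), Hlf (-0.60) and Dhcr7 (0.36). With the 8 arrays alone the calls of Nop56 (adjusted p = 0.148), Nop58 (0.0809), Mycl (0.203) and Cited2 (0.417) were lost. So were those of Trib2 (0.246), Slc3a2 (0.347), Trp53inp1 (0.306), Hlf (0.134) and Dhcr7 (0.567). With the mean of all probe sets Nop56 (0.276) and Eda2r (0.133) were not called. Among 20 xenobiotic response genes and 16 liver X receptor genes 0 were called.

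**Figure D3:**
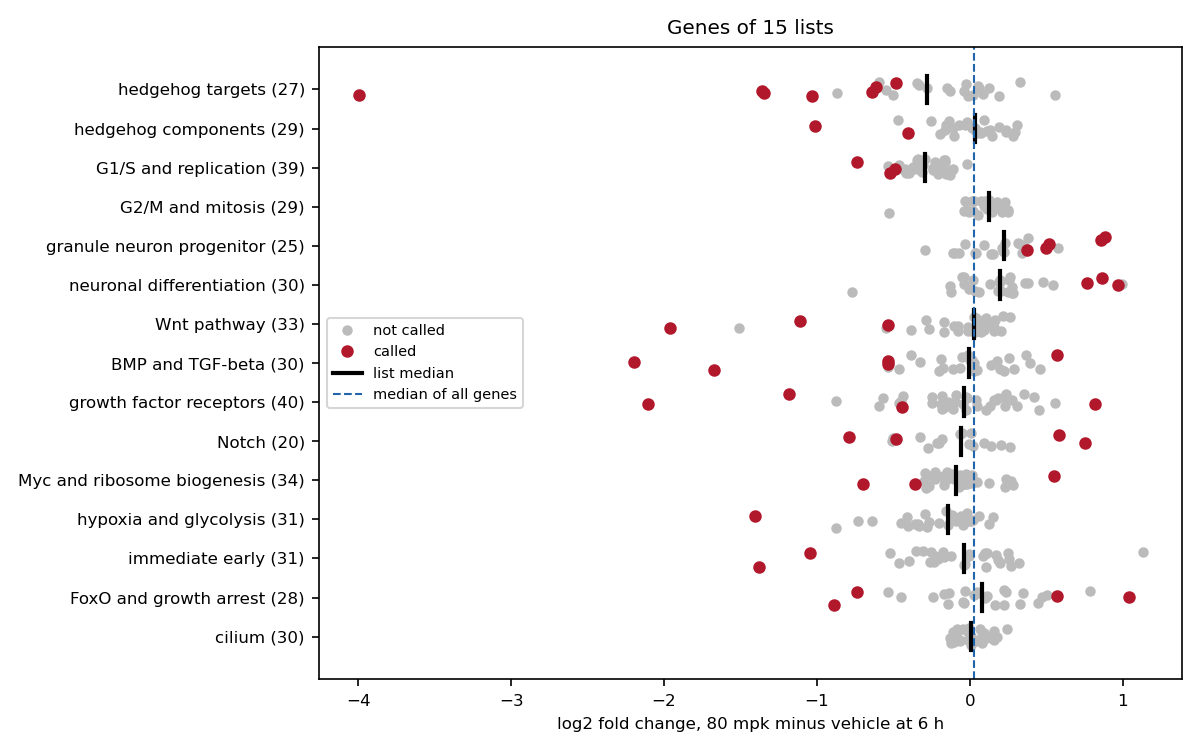
Log2 fold change of 80 mpk minus vehicle at 6 h for the measured members of 15 gene lists, with called members in red, the list median as a black bar and the median of all genes (0.03) as a dashed line. Hedgehog targets (median -0.28) and G1/S and replication genes (-0.29) lie left of the line and granule lineage genes (0.23) right of it, whereas most single members are not called.

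Markers of other cell types were called in 2 cases. Besides Sox18, 1 of 12 astrocyte and oligodendrocyte markers was lower, the progenitor factor Olig1, at 0.699, 0.769 and 0.681 in 80 mpk arrays against 0.875, 1.38, 1.89, 1.97 and 1.63 in vehicle arrays (-1.06 ± 0.21, adjusted p = 0.000998). Olig1 was not called with the 8 arrays alone (0.123) or without the muscle-rich arrays (0.333), whereas Sox18 was called in both fits. Among 18 macrophage and microglia markers 0 were called, and their summed scaled intensity was 81.5 to 101 in 80 mpk arrays and 65.3 to 182 in vehicle arrays. The sums of 15 fibroblast and matrix markers, with 0 called, were 119 to 167 in 80 mpk arrays and 92.5 to 254 in vehicle arrays. For adipocyte (9), red cell (3), lymphocyte (12), neutrophil (9) and skin epithelium (9) markers 0 were called as well. The part of muscle and other host tissue in the results was not tested beyond the values without the muscle-rich arrays and with the covariate.

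The lower dose was measured at the same time against the same 5 vehicle arrays, so both comparisons share their baseline. With 40 mpk 362 genes were called (1.68%), 227 lower (1.05%) and 135 higher (0.626%). When 80 mpk was set directly against 40 mpk, limma called 0 genes, with 785 at an unadjusted p under 0.05. Gli1 measured 0.156, 0.199 and 0.176 in 80 mpk arrays, against 0.289, 0.374, 0.242, 0.319 and 0.305 in 40 mpk arrays. Every 80 mpk array lay below every 40 mpk array, and the difference between the doses was -0.78 ± 0.22 (95% interval -1.23 to -0.33, unadjusted p = 0.000973), which did not hold after adjustment (adjusted p = 1). For Pdgfa the difference between doses was -0.40 (interval -0.67 to -0.12) and for Fosl2 -0.25 (-0.67 to 0.17). Of all genes the smallest unadjusted p between the doses was that of Rgs1, at 0.518, 1.10 and 0.975 in 80 mpk arrays, against 0.0794, 0.275, 0.233, 0.176 and 0.181 in 40 mpk arrays (2.23 ± 0.45, interval 1.33 to 3.14, adjusted p = 0.146). Hmox1 measured 1.11, 0.324 and 0.434 in 80 mpk arrays, against 1.99, 1.29, 1.53, 0.993 and 1.69 in 40 mpk arrays, with 1 value of each dose overlapping (-1.44 ± 0.46, interval -2.36 to -0.52, adjusted p = 1). A p that misses the threshold does not show that the doses acted alike.

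The 80 mpk response was then followed over time, each time against its own vehicle group. At 1 h limma called 0 genes, with 1325 at an unadjusted p under 0.05, and of the later 254 lower genes 123 had a negative difference. Called genes numbered 378 at 6 h, 2120 at 12 h (9.84%), 7095 at 24 h (32.9%) and 2341 at 36 h (10.9%). Lower genes were 5.99%, 15.3% and 5.64% of all genes at 12, 24 and 36 h, and higher genes 3.85%, 17.6% and 5.22%. The change of effect between 1 and 6 h was itself called for 172 genes (0.798%), 136 towards lower (0.631%) and 36 towards higher values (0.167%). Of the 172 genes 124 were lower and 29 higher at 6 h. It was -4.11 for Gli1, -2.07 for Pdgfa, -1.96 for Clic6 and -1.95 for Bcl11b and Gdf10, and 1.33 for Igfbp5, 1.18 for Neurod6 and 1.07 for Dmrta1. Without 80 mpk replicate 3 at 6 h this count was 101.

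Genes that had moved at 6 h mostly stayed on the same side for a day. Of the 254 lower genes 210 were also lower at 12 h (82.7%, and 16.3% of the 12 h list), 204 at 24 h (80.3%) and 80 at 36 h (31.5%). Of the 124 higher genes 95 were also higher at 12 h (76.6%, and 11.5% of that list), 84 at 24 h (67.7%) and 41 at 36 h (33.1%). Calls in the opposite direction were 0 at 12 h, 3 and 2 at 24 h for lower and higher genes, and 1 and 14 at 36 h. Gli1 differed by 0.11 at 1 h, -4.00 at 6 h, -4.48 at 12 h, -3.19 at 24 h and 0.05 at 36 h. Wif1 stood at -1.96 at 6 h, -2.62 at 12 h, -4.80 at 24 h and -1.95 at 36 h, with a change of -0.66 between 6 and 12 h that did not pass the test (adjusted p = 0.61), and Igfbp5 stood at 1.20, 2.0, 2.63 and 1.34 at these times. Fosl2 differed by -1.38 at 6 h, -1.99 at 12 h and 0.25 at 24 h. Ddit4 had a difference of 1.04 at 6 h and was lower at 36 h (-1.01, adjusted p = 3.09e-05).

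Between 6 and 12 h the effect itself changed for 38 genes (0.176%), 31 towards lower (0.144%) and 7 towards higher values (0.0325%), and 28 of them had not been called at 6 h. Of the 39 members of the G1/S list 7 were among the 38, all towards lower values. The list held 34 lower genes at 12 h, with a median of -0.70 against -0.29 at 6 h. Mcm4, another helicase subunit, differed by -0.36 at 6 h and -1.15 at 12 h (change -0.79, adjusted p = 0.00609), and Ccne2 by -0.73 and -1.77 (change -1.03, adjusted p = 0.049). Hells, which is not on the list, differed by -0.50 at 6 h and -1.55 at 12 h (change -1.05, adjusted p = 0.00494). The other 5 list members were Ccne1, Mcm2, Mcm3, Uhrf1 and Msh6, with changes between -0.79 and -0.48. Dmrta1 moved further up, with 1.04 at 6 h and 2.08 at 12 h (change 1.05, adjusted p = 0.0314). Rgs1 did the opposite, with 2.31 at 6 h and -0.36 at 12 h (change -2.67, adjusted p = 0.049). This count of 38 rested on single arrays: it was 0 without 80 mpk replicate 3 at 6 h, 8 without replicate 2 and 17 without replicate 1, between 10 and 64 without single vehicle arrays of 6 h, between 6 and 58 without single 80 mpk arrays of 12 h, and between 14 and 36 without single vehicle arrays of 12 h.

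**Figure D4:**
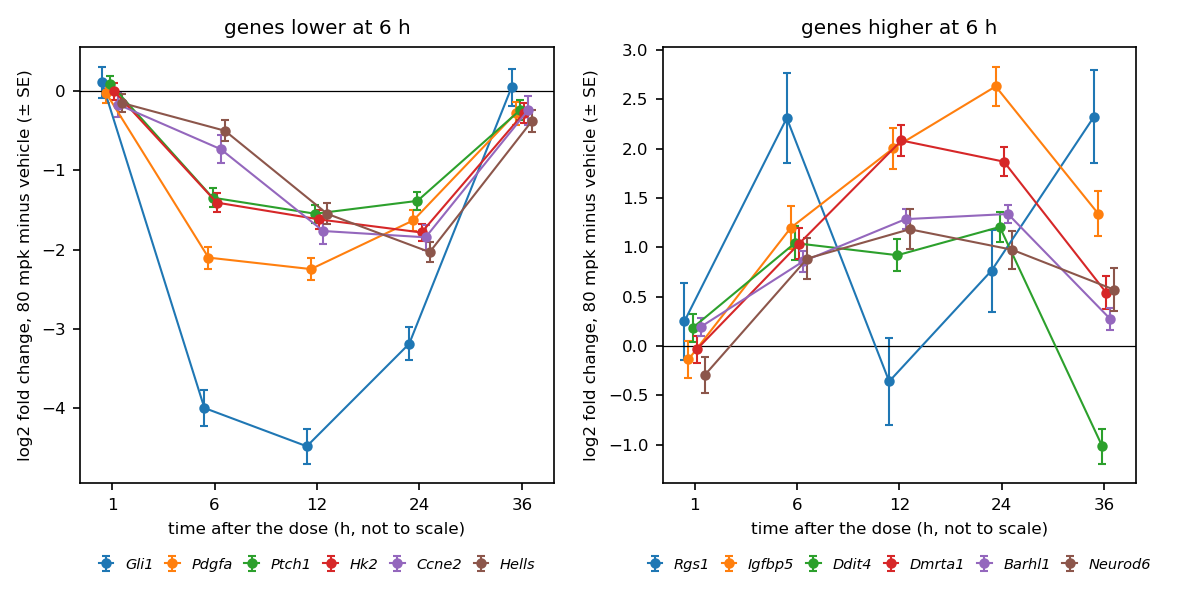
Log2 fold change of 80 mpk minus vehicle of the same time (± SE) at 1, 6, 12, 24 and 36 h after a single dose, for 6 genes that fell and 6 that rose at 6 h. Gli1 stands near 0 at 1 h (0.11) and 36 h (0.05) and at -4.00, -4.48 and -3.19 between, whereas Rgs1 is high at 6 h (2.31) and not at 12 h (-0.36).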

How the data were processed

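The deposited values are intensities, 1 per probe set, from biotin-labelled cRNA on one-colour arrays, and RMA is named, with no settings, in the submitters' processing notes. The genome build and array settings are not given in the sources used here. All values were above 0 (0.0166 to 99.9) and each array had a mean of 1, so the deposited intensity was read as linear, although log2 values had been assumed in the plan, and log2 was taken without a pseudocount.

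Of 43681 probe sets 30342 carried 1 gene symbol, and the other 13339 were left out. The RefSeq gene table supplied current names through the accession (15255), the symbol (11332) or a synonym (3702), and 38 symbols were kept. For the 6060 genes with several probe sets the brightest on average was kept, which gave 21552 genes, with no filter on dim genes. All 75 arrays were fitted with 1 mean for each of 19 groups in limma 3.58.1 under R 4.3.3 (56 residual and 3.37 prior degrees of freedom). Adjustment of p-values (Benjamini-Hochberg) ran over all genes. Simulated data with known changes were used to test the script. No 2 arrays held identical values.

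The comparison, the 38 gene lists and the genes named were chosen with earlier results of these data known. The rule for names took the measured hedgehog genes, the 25 largest falls and 20 largest rises among called genes whose 80 mpk arrays all lay outside the 5 vehicle arrays, up to 5 members of each list by adjusted p, up to 8 genes in each direction of a difference between effects, the 10 called genes with the smallest adjusted p, and cell type markers. Placeholder names were left out. For the largest falls and rises the rule thus fixes that groups do not overlap. Cltb, Hells and the genes under Other observations were named after their values were seen, although Hells, Cfc1 and Mab21l1 also met the rule. Fos, Ccne1, Mcm2, Uhrf1 and Msh6 were named outside the rule as well. Lists are described by counts and medians, with no set test. Alternatives were array weights, a replicate block, the mean of all probe sets, a filter that kept 11963 brighter genes, quantile normalization of the table, a trended and robust variance prior, marker means as covariates, the 8 arrays alone, vehicle arrays of 1, 6 and 12 h joined, leaving out each array in turn and, added after seeing the data, leaving out the 3 muscle-rich arrays. Tables and figures were made with matplotlib 3.10.9, pandas 2.3.3, numpy 2.4.6 and scipy 1.17.1 under Python 3.11.15.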

Additional observations from a re-analysis of the deposited data

Results flagged for a closer look

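For 4 of 57 items checked at 6 h 1 vehicle array lay far from the other 4, and chance alone gives such a flag in about 1 of 20 groups. Fam155a measured 0.992 in vehicle replicate 1, against 1.45 to 1.63 in the others. Hk2 measured 8.16 in vehicle replicate 2, against 10.2 to 10.8. Lmo7 measured 0.87 in vehicle replicate 1, against 1.24 to 1.37. The muscle marker mean was 1.45 on the log2 scale in vehicle replicate 2, against -3.10 to -2.06.

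The effect of 80 mpk differed between 12 and 6 h for 38 genes by the limma test of the difference itself. The largest increases of the effect were in Dmrta1 (1.05), the katanin-like gene Katnal2 (0.99), the F-box gene Fbxo25 (0.57), Iftap (0.52), Glt8d1 (0.43) and Pdcd5 (0.36). The largest decreases were in Rgs1 (-2.67), the matricellular gene Ccn1 (-1.66), Depp1 (-1.29), the proto-oncogene Myb (-1.09), Hells (-1.05), Radx, which acts at replication forks (-1.05), Ccne2 (-1.03) and the checkpoint gene Clspn (-0.96). Radx (-0.02) and Clspn (-0.14) had differed little at 6 h and were lower at 12 h (-1.06 and -1.10).

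Between 6 and 1 h the effect differed for 172 genes. The largest increases were in Igfbp5 (1.33), Neurod6 (1.18), Dmrta1 (1.07), Ddit4 (0.86), Irs4 (0.86), Tprn (0.78), Pth (0.76) and Mab21l1 (0.74). Pth was dim and not called at 6 h (0.25, adjusted p = 0.506). The largest decreases were in Gli1 (-4.11), Pdgfa (-2.07), Clic6 (-1.96), Bcl11b (-1.95), Gdf10 (-1.95), Wif1 (-1.87), Fam155a (-1.83) and Tmem28 (-1.78).

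Of the 13339 probe sets without a gene symbol 15 were called with 80 mpk at 6 h (0.112%), 5 higher and 10 lower. They belong to no gene count given here.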

How the results depend on the processing

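The 378 calls with 80 mpk at 6 h (124 higher, 254 lower) became 607 (222 and 385) with array weights, 110 (19 and 91) with the 8 arrays alone, 750 (321 and 429) with vehicle arrays of 1, 6 and 12 h joined and 88 (29 and 59) without the muscle-rich arrays, and lay between 236 and 371 (53 to 120 and 167 to 275) when single arrays were left out. The 362 calls with 40 mpk became 950 (422 and 528) with joined vehicle arrays, with 206 higher under muscle and fibroblast covariates, and 262 to 369 (66 to 148 and 170 to 285) without single arrays. The dose difference called 1 gene, higher, with array weights and with either covariate fit, and 0 to 0 without single arrays. The 38 changes between 12 and 6 h became 20 (13 lower) with quantile normalization, 146 (29 and 117) with array weights, 88 (15 and 73) with both covariates and 11 higher with the dim filter, and 0 to 64 (0 to 11 and 0 to 53) without single arrays. The 172 changes between 6 and 1 h became 337 (85 and 252) with array weights and 264 (70 higher) with both covariates, and 101 to 200 (10 to 36 and 91 to 169) without single arrays. With GACCACCNA in place of the Gli letters the promoters were 2 lower, 1 higher and 123 in all. With the replicate block the counts were 331 (112 and 219) for 80 mpk and 34 and 146 for the changes between times. In their deviations from the group means, same-numbered 80 mpk and vehicle arrays correlated at 0.101, -0.536 and -0.14. The highest correlation of any such pair, 0.522, was between 80 mpk replicate 1 and vehicle replicate 2, both muscle-rich. Whether the replicate numbers stand for a shared batch cannot be told from these values. Of 1555 results for 82 genes 1380 kept direction and side of the threshold, 175 lost the call and 0 reversed. With the 8 arrays alone 12 of the 45 largest changes lost their call and without the muscle-rich arrays 14. With the muscle mean, or the muscle and fibroblast means, as covariates and all arrays kept, 45 of these 45 kept their call. The cause of the shifts in counts and calls was not tested, except that fewer arrays or genes enter some fits. The number of arrays, and for dim genes such as Hhip, Irs4 and Gdf10 the low signal, limits the precision.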

Other observations

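Further genes among the 378 were picked one by one after their values were seen. They stand for no list or theme, and they are a description without a test of any group. Among transcription factor genes Hes3 (-1.22 ± 0.15), Lhx3 (-1.03 ± 0.15), Tbx1 (-0.78 ± 0.12) and Otx1 (-0.64 ± 0.12) were lower, as were Smad3, which carries TGF-beta signals (-0.99 ± 0.15), and the retinoid receptor gene Rxra (-0.89 ± 0.12). Cfc1, a co-receptor for Nodal, measured 0.315, 0.317 and 0.383 in 80 mpk arrays, against 0.806, 0.738, 0.689, 0.926 and 0.915 in vehicle arrays (-1.26 ± 0.13). The neurotrophin receptor gene Ngfr differed by -1.24 ± 0.16. The uracil glycosylase gene Ung measured 1.16, 1.31 and 1.36 in 80 mpk arrays, against 2.05, 2.38, 2.51, 2.49 and 3.01 in vehicle arrays (-0.96 ± 0.16). Exo1, a repair exonuclease, differed by -0.92 ± 0.19 and Nol9, a kinase of ribosomal RNA processing, by -0.83 ± 0.16. The factor genes Zfp423 (0.73 ± 0.13) and Mab21l1 (0.72 ± 0.11) were higher. So was the potassium channel gene Kcnd3, at 6.36, 7.89 and 6.91 in 80 mpk arrays, against 3.15, 4.43, 5.16, 5.05 and 4.23 in vehicle arrays (0.69 ± 0.13).

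Leaving out the muscle-rich arrays ended the calls of Lhx3 (adjusted p = 0.0637), Tbx1 (0.0635), Otx1 (0.347), Ung (0.0901), Exo1 (0.133) and Nol9 (0.0655). Those of Exo1 (0.0593), Nol9 (0.0574), Zfp423 (0.0508) and Kcnd3 (0.136) were lost with the 8 arrays alone. Hes3, Smad3, Rxra, Cfc1, Ngfr and Mab21l1 were called in all 19 alternatives.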
